A study of Mus musculus with 12 samples.

Results

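The Fc gamma receptors of the mouse and the chain and kinase they signal through were followed in bulk RNA sequencing of bone marrow derived macrophages, which are macrophages grown out of bone marrow cells in culture. The 6 genes were the rows of the count table whose Ensembl identifiers map to the symbols Fcgr1, Fcgr3, Fcgr4, Fcgr2b, Fcer1g and Syk, of 55401 gene identifiers in all. Macrophages from old mice (12 months, 6 libraries) were compared with macrophages from young mice (8 weeks, 6 libraries), all of the C57BL6 background and with no other treatment named. Both groups were grown in DMEM with 20 ng/mL of M-CSF, the growth factor that drives macrophage growth and survival, and harvested on day 7. The labels call the libraries biological replicates and do not say that each came from its own animal, so a p-value here speaks of the spread among these 12 libraries, which may be technical. The question set by the design is which genes differ in expression between the ages.

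Fc gamma receptors bind the constant part of IgG, and in macrophages they start the uptake of antibody-coated particles. Fcgr1, Fcgr3 and Fcgr4 are activating: each needs the common gamma chain, encoded by Fcer1g, to reach the surface and to signal, and Syk is the kinase that docks on the phosphorylated activation motif of that chain. Fcgr2b is the inhibitory receptor, which has its own inhibitory motif and recruits the phosphatase SHIP1, and the balance between activating and inhibitory receptors is known to set the threshold of the response. Interferon gamma is known to raise Fcgr1 and Fcgr4 in macrophages.

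All 6 genes were read deeply, with 1377 to 43103 counts per gene and library from libraries of 19345587 to 22356812 assigned counts in old and 22150081 to 25169045 in young macrophages. Levels are CPM (counts divided by the size of the library, with TMM scaling), unless given per kilobase. The macrophage label held: the markers Lyz2, Csf1r, Cd68 and Adgre1 all had 744 CPM or more in every library, and the 9 macrophage markers other than Fcgr1 summed to 32867 to 43763 CPM in old and 27401 to 45030 CPM in young libraries. Old replicate 6 stood apart by NK and T cell markers, whose 10 genes summed to 25.1 CPM there, against at most 0.316 CPM in the other old and 0.263 CPM in the young libraries. The most abundant was Nkg7 (8.59 CPM). NK cells also use Fcgr3 and Fcer1g, and the part of these cells in the levels of old replicate 6 was not tested; of the old libraries it was lowest for Fcer1g and second lowest for Fcgr3. Young replicate 6 stood apart in Cd34, a progenitor marker, at 59.6 CPM against at most 9.39 CPM elsewhere, and together with old replicates 2 and 3 it had the highest cell cycle levels (mean log2 CPM of 30 cell cycle genes 6.15 and 5.62 in old replicates 2 and 3 and 6.75 in young replicate 6, against 3.93 to 4.34 in the other old and 4.23 to 5.24 in the other young libraries). Of the B and plasma cell markers Pax5, Fcer2a and Mzb1 were at 0 and the others summed to 12.2 to 20.0 CPM in old and 14.1 to 25.7 CPM in young libraries, mostly Cd22. Neutrophil markers, of which 7 of 7 tested had a positive log2 fold change and 0 were called, summed to 125 to 233 CPM in old and 73.2 to 221 CPM in young libraries, mostly Csf3r, with Ly6g at most 0.0934 CPM. Mast cell and basophil markers summed to 7.16 to 21.5 CPM in old and 7.33 to 13.5 CPM in young libraries, mostly Kit, with Mcpt4 and Tpsb2 at 0. Dendritic cell markers summed to 3.45 to 10.04 CPM in old and 2.91 to 5.88 CPM in young libraries, and monocyte and progenitor markers to 32.5 to 81.1 CPM in old and 42.9 to 74.2 CPM in young libraries. The part of such cells in the levels of the 6 genes was not tested. In bulk libraries fewer cells of a type and less RNA per cell cannot be told apart.

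Fcgr3, Fcgr4, Fcgr2b and Fcer1g lie close together on chromosome 1, while Fcgr1 and Syk lie on other chromosomes. In GRCm38 Fcgr2b (ENSMUSG00000026656) spans chr1:170958617-170976547 on the minus strand, Fcgr4 (ENSMUSG00000059089) chr1:171018920-171029761 on the plus strand and Fcgr3 (ENSMUSG00000059498) chr1:171051174-171064935 on the minus strand. Fcer1g (ENSMUSG00000058715) spans chr1:171229572-171234365 on the minus strand, Fcgr1 (ENSMUSG00000015947) chr3:96282909-96293969 on the minus strand and Syk (ENSMUSG00000021457) chr13:52583173-52648792 on the plus strand. The counts cover all annotated exons of a gene without strand. The only overlap of exons found was 155 bases that Fcgr2b shares with Gm38204, which had 0 counts.

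Fcgr2b and Fcgr3 have closely related coding sequences in spite of their opposite signs of signalling, and this bears on how reads can be told apart. Over 489 aligned coding bases they were 96.3% identical in the GENCODE M21 transcripts, with a longest identical run of 129 bases. The 120 coding bases shown here, from a single exon of each gene, are printed because they hold a cluster of differences next to a long identical stretch. Capitals mark the 4 positions at which the genes differ.
Fcgr2b (GRCm38 chr1:170967992-170968111, minus strand): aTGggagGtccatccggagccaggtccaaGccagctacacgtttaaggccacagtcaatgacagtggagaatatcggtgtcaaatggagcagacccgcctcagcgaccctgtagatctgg
Fcgr3 (GRCm38 chr1:171057703-171057822, minus strand): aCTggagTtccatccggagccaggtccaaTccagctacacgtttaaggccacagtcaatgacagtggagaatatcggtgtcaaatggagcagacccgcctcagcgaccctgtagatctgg
Windows were taken from the longest principal transcript of each gene, which for Fcgr2b has 3544 bases. Of the windows of 75 bases, 7.38% in Fcgr3 and 2.71% in Fcgr2b were identical in the other gene. Of the windows of 50 bases these were 12.8% and 4.75%. The share in the shorter principal transcript of Fcgr2b, of 1578 bases, was not computed and may differ. Of the Fcgr2b windows of 75 bases, 9.25% were found in any other gene, Fcgr3 included. The header of the table sets no counting of multiply aligned reads, so reads from such windows would be left out of both genes and the levels of both are uncertain to that extent. Fcgr1, Fcgr4, Fcer1g and Syk had no window of 75 bases in common with another gene.

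The 250 bases before the start of Fcgr1 and Fcgr4 are shown because these were the members with the highest correlation with the interferon-stimulated genes. Capitals mark the matches, on either strand, of 3 motifs: the gamma interferon activation site (GAS, TTCNNNGAA), the interferon-stimulated response element (ISRE, GAAA, any 2 bases, GAAA) and the PU.1 box (GAGGAA, which reads TTCCTC on the other strand). Sequences are those of RefSeq for GRCm38.p6.
Fcgr1 (chr3:96293970-96294219, minus strand): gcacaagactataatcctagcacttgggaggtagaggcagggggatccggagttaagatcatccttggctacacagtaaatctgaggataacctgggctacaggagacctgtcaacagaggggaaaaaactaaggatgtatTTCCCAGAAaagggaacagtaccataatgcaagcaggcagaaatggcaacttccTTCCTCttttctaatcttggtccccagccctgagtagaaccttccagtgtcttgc
Fcgr4 (chr1:171018676-171018925, plus strand): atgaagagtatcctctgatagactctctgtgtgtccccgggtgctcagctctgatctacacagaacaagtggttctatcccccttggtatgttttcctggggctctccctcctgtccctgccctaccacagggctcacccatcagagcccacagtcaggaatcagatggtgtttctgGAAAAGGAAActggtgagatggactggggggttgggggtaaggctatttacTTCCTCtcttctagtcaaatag
Fcgr1 held a GAS match, TTCCCAGAA, from 109 to 101 bases before the start and a PU.1 box from 55 to 50 bases before it. Fcgr4 held an ISRE match, GAAAAGGAAA, from 73 to 64 bases before the start and a PU.1 box from 22 to 17 bases before it. No match overlapped that of another motif. The Fcgr3 window held a PU.1 box alone, Syk a PU.1 box before the second of its starts, and those of Fcgr2b and Fcer1g held none of the 3. Of 32851 mouse promoter windows of this length, 7.02% hold the GAS letters, 2.98% the ISRE letters and 23.3% the PU.1 box, and a match of letters is a description of the window only.

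The signalling chain was the most abundant of the 6 genes, and the inhibitory receptor the least abundant of the 4 receptors on the length used for counting. Per kilobase of counted exons, the mean level over the 12 libraries was 1650 CPM per kilobase for Fcer1g and 450 for Fcgr3. It was 133 CPM per kilobase for Fcgr1 and 129 for Fcgr4, then 43.7 for Syk and 37.8 for Fcgr2b. Fcer1g lay above Fcgr3, Fcgr3 above Fcgr1, and Fcgr4 above Syk in all 12 libraries. Fcgr1 lay above Fcgr4 in 6 of 12 libraries, so these neighbours were not ordered, and Syk lay above Fcgr2b in 10 of 12. The place of Fcgr2b rests on its length. The counted exons of Fcgr2b sum to 5790 bases, while its principal transcripts are 3544 and 1578 bases long. With the longest principal transcripts the order was unchanged, at 61.8 CPM per kilobase for Fcgr2b, whereas with the shortest Fcgr2b reached 139 and lay above Fcgr1 in 9 of 12 libraries. A comparison of 1 gene between libraries is not touched by this choice.

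Per kilobase of counted exons, low-affinity Fcgr3 made up most of the receptor level in both ages, and the inhibitory share was the smallest. The place of the inhibitory share depends on the length used. With the shortest principal transcripts Fcgr2b held 4.31% of the summed level of the 6 genes over all libraries. Fcgr1 then held 3.98%, Fcgr4 3.91% and Fcgr3 18.2%. The shares that follow use counted exons. Fcgr3 held 63.0% ± 7.70 of the summed per-kilobase level of the 4 receptors in old and 61.0% ± 9.72 in young libraries (SD, n = 6 each). The high-affinity receptor Fcgr1 held 15.7% ± 4.58 in old and 17.4% ± 6.15 in young libraries, and Fcgr4 16.03% ± 3.08 in old and 16.98% ± 3.67 in young libraries. Fcgr2b held 5.34% ± 0.607 in old and 4.62% ± 1.28 in young libraries. Each difference between the ages was smaller than the SD of either group for the activating receptors; for Fcgr2b it was larger than the SD of the old and smaller than that of the young libraries.

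The ratio of the summed activating receptors to Fcgr2b, per kilobase, was 17.8-fold in old and 21.5-fold in young macrophages as a geometric mean. In log2 this was 4.16 ± 0.18 in old and 4.42 ± 0.48 in young libraries (SD, n = 6 each), a difference of -0.27 that was smaller than the pooled SD of 0.36. Old libraries ran from 3.96 in replicate 4 to 4.41 in replicate 6, and young libraries from 3.97 in replicate 2 to 5.24 in replicate 6. The groups overlapped, and 4 of the 6 young libraries lay within the range of the old ones. Young replicate 6 (37.8-fold) and young replicate 5 (26.9-fold) lay above every old library, and they did so by different receptors. In young replicate 6 the inhibitory receptor was low: Fcgr2b had 55.6 CPM there, against 212 to 264 CPM in the remaining young ones, while Fcgr3 had 470 CPM. In young replicate 5 Fcgr2b was ordinary at 245 CPM, and the activating receptors Fcgr1 (860 CPM) and Fcgr4 (346 CPM) were the highest of all 12 libraries. Without young replicate 6 the difference between the ages was -0.10, and without Fcgr3 in the sum it was -0.36. With the principal transcripts in place of the counted exons the ratio was 13.01-fold in old and 15.6-fold in young libraries (longest) or 5.79-fold in old and 6.93-fold in young libraries (shortest). No p is given for the ratio, since it is a score over genes chosen with these data known.

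**Figure D1:**
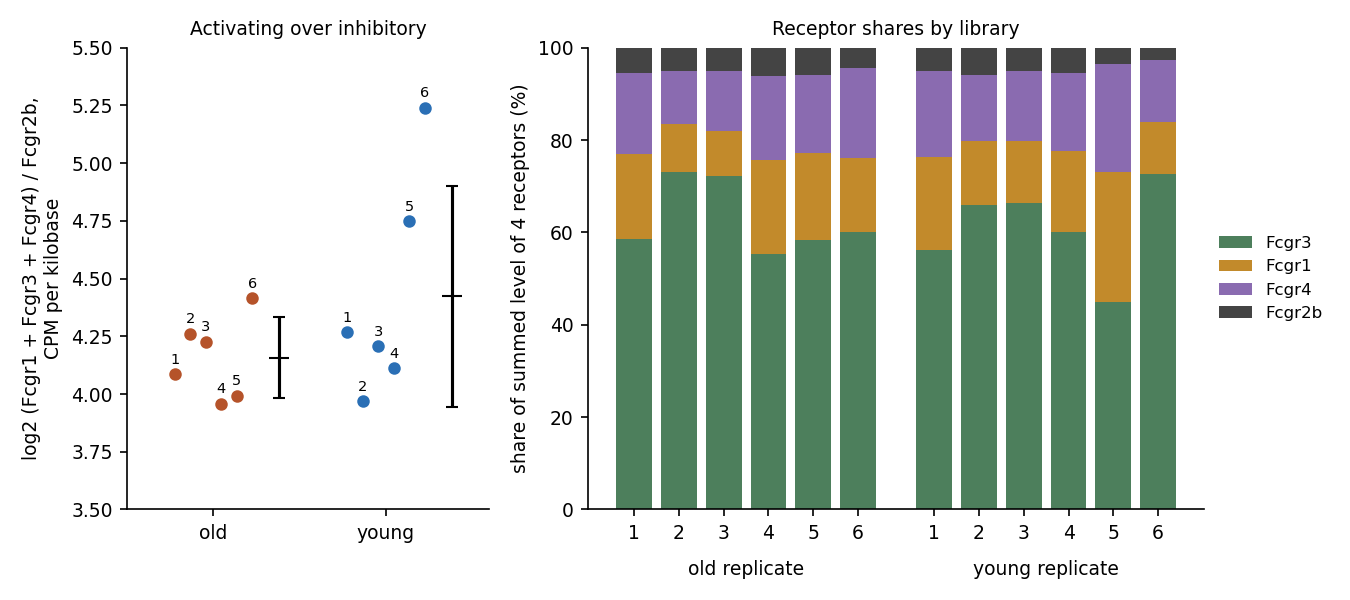
Activating over inhibitory Fc gamma receptors by library: left, log2 of the summed Fcgr1, Fcgr3 and Fcgr4 level over the Fcgr2b level (CPM per kilobase), each point a library with its replicate number and bars the mean and SD of 6 libraries; right, share (%) of each receptor in the summed level of the 4 receptors. Old and young libraries overlap on the left, with young replicates 5 and 6 above every old library, and Fcgr3 is the largest share in every library.

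Fcgr1, Fcgr4 and Fcgr2b differed widely between libraries of the same age, and Fcgr3, Syk and Fcer1g less so. Fcgr1 ran from 147 CPM over a median of 327 to 497 CPM in old libraries, and from 108 over 313 to 860 CPM in young libraries. Fcgr4 ran from 80.3 CPM over 167 to 214 CPM in old libraries, and from 63.3 over 156 to 346 CPM in young libraries. For both genes old replicate 2 and young replicate 6 were lowest, old replicate 4 and young replicate 5 highest, and the old range lay wholly inside the young one. Fcgr2b ran from 158 CPM over 213 to 329 CPM in old libraries, and from 55.6 over 233 to 264 CPM in young libraries. Fcgr3 ran from 701 CPM over 771 to 901 CPM in old libraries, and from 470 over 802 to 920 CPM in young libraries. These 2 were also lowest in old replicate 2 and young replicate 6, and the other 5 young libraries lay close together, at 783 to 920 CPM for Fcgr3. Syk ran from 362 CPM over 429 to 453 CPM in old libraries, and from 276 over 423 to 430 CPM in young libraries, with the other 5 young ones at 407 CPM or more. Fcer1g ran from 1201 CPM over 1366 to 1435 CPM in old libraries, and from 1313 over 1485 to 1864 CPM in young libraries. Fcer1g did not share the order of the receptors: young replicate 6, lowest for the 4 receptors and Syk, was second highest for Fcer1g among the young.

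**Figure D2:**
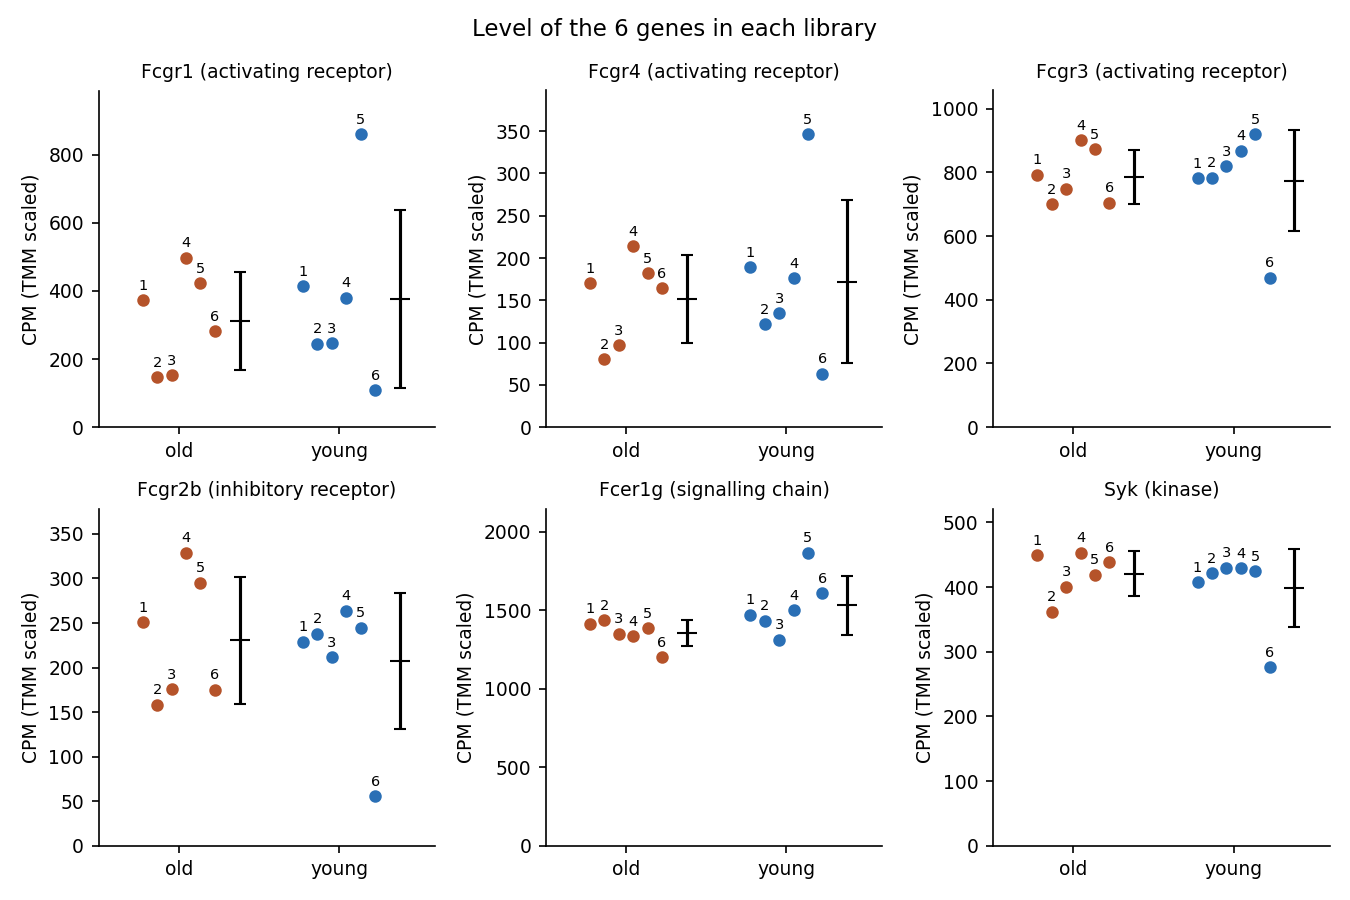
Level (CPM, TMM scaled) of the 6 genes in each of the 12 libraries; points carry the replicate number and bars give the mean and SD of 6 libraries. Old and young libraries overlap for every gene, and young replicate 6 is lowest for the 4 receptors and Syk but not for Fcer1g.

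Set against the 9421 genes of at least 5 mean CPM, whose median within-group SD of log2 CPM was 0.18, Fcgr1 was among the most variable genes of these cultures. Its SD was 0.88, and 174 of the 9421 genes were more variable. Fcgr4 had an SD of 0.70, with 300 genes more variable, and Fcgr2b 0.68, with 313 more variable. Fcgr3 (0.27, 2200 more variable) and Syk (0.20, 4115 more variable) were nearer the median, and Fcer1g (0.14, 6727 more variable) was steadier than it. Leaving out the 3 libraries highest in cell cycle genes (old replicates 2 and 3, young replicate 6) took the median to 0.14. Fcgr1 (0.60, 80 genes more variable) and Fcgr4 (0.46, 208) then stayed near the top of the list, Fcgr2b had an SD of 0.27 with 931 genes more variable, and Syk had 0.04 with 9341 more variable. Fcgr3 then had an SD of 0.13 and Fcer1g of 0.16, so Fcer1g was the member whose SD was not smaller without these 3 libraries.

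**Figure D3:**
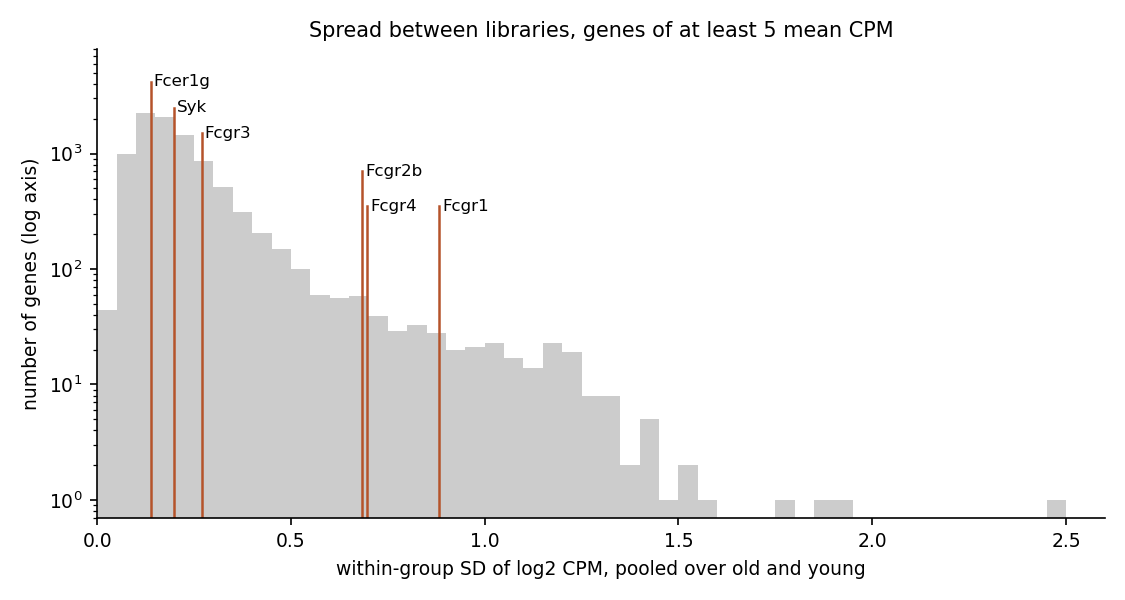
Within-group SD of log2 CPM, pooled over old and young libraries, for the 9421 genes of at least 5 mean CPM (grey, number of genes on a log axis), with the 6 genes as lines whose height has no meaning. Fcgr1, Fcgr4 and Fcgr2b lie in the upper tail and Fcer1g below the median of 0.18.

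Fcgr1 and Fcgr4 followed the interferon-stimulated genes from library to library, in old and young alike. The mean log2 CPM of 36 interferon-stimulated genes, none of them among the 6, ran from 5.49 in replicate 2 to 7.15 in replicate 4 of the old libraries, and from 5.17 in replicate 6 to 7.57 in replicate 5 of the young ones. Of 21 relations computed over the 12 libraries (15 pairs of members and 6 members against this list), that of Fcgr1 with the list had a Pearson r of 0.98 and a Spearman rho of 0.99. Each had a permutation p of 1e-05, the smallest that 100000 resamples can give, and 7e-05 after Benjamini-Hochberg adjustment. Without the 2 libraries farthest from the median of the list (young replicates 5 and 6) r was 0.96, within the old libraries it was 0.96 and within the young ones 0.997. Fcgr4 gave an r of 0.98 and a rho of 0.99 at the same permutation p-values, 0.95 without those 2 libraries, 0.95 within old and 0.999 within young libraries. The order of libraries by interferon-stimulated level was thus nearly the order by either receptor, whatever their age. How many other genes reach a like r with the list is not given here. The relation is therefore not shown to be particular to these receptors. The cell cycle level ran largely the opposite way. Young replicate 6 had the lowest list level (5.17) and the highest cell cycle level (6.75), while old replicate 4 had 7.15 and 3.93. Old replicate 6 departed from this order, with 6.34 and 4.03. Whether the receptors follow the list apart from what it shares with the cell cycle level was not tested over all 12 libraries. Fcgr1 and Fcgr4 had an r of 0.99 with each other (permutation p 1e-05, adjusted 7e-05; rho 0.99), and 0.98 without the same 2 libraries. Without the 3 libraries highest in cell cycle genes the r with the list was 0.95 for both (exact permutation test over 9 libraries, adjusted p 5.6e-04 for Fcgr1 and 2.0e-04 for Fcgr4). All points share the scaling of their library. The list and the members were chosen with earlier results of these data known, so the p-values of the 21 relations are descriptive.

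The other receptors had lower correlations with the list, and Fcer1g gave no relation past the threshold. Fcgr3 had an r of 0.81 (adjusted permutation p 0.0011; rho 0.83, adjusted permutation p 0.0050) and Fcgr2b an r of 0.76 (adjusted permutation p 0.0027; rho 0.77, adjusted permutation p 0.011) with the interferon-stimulated level. Without the 3 libraries highest in cell cycle genes these were 0.75 and 0.49 and no longer past the threshold (adjusted exact permutation p 0.084 and 0.32 over 9 libraries). Whether their r differs from that of Fcgr1 was not tested. The related receptors Fcgr3 and Fcgr2b, of opposite function, had an r of 0.97 with each other (adjusted permutation p 2.1e-04). Their rho was 0.88 (adjusted permutation p 0.0015). This r was 0.97 within old, 0.97 within young and 0.79 without the 3 libraries (adjusted exact permutation p 0.060). The value within young includes young replicate 6, the lowest library for both genes. It had 470 CPM of Fcgr3 and 55.6 CPM of Fcgr2b, against 783 and 212 CPM in the next young libraries. The relations of Syk with the receptors (r 0.70 with Fcgr1, 0.74 with Fcgr4, 0.89 with Fcgr3 and 0.93 with Fcgr2b, adjusted permutation p 0.0027 to 0.0087; rho 0.55 to 0.59, adjusted permutation p 0.086 to 0.10) rested on young replicate 6 and old replicates 2 and 3. Without these r was between -0.02 and 0.19. Fcer1g had an r of 0.22 with the list (adjusted permutation p 0.53; rho 0.01, adjusted permutation p 0.99), and no pair of Fcer1g with another member passed. Without the 3 libraries highest in cell cycle genes its r was higher, at 0.62 with the list, 0.75 with Fcgr1 and 0.70 with Fcgr4, and none of these passed (adjusted exact permutation p 0.16, 0.094 and 0.16 over 9 libraries).

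**Figure D4:**
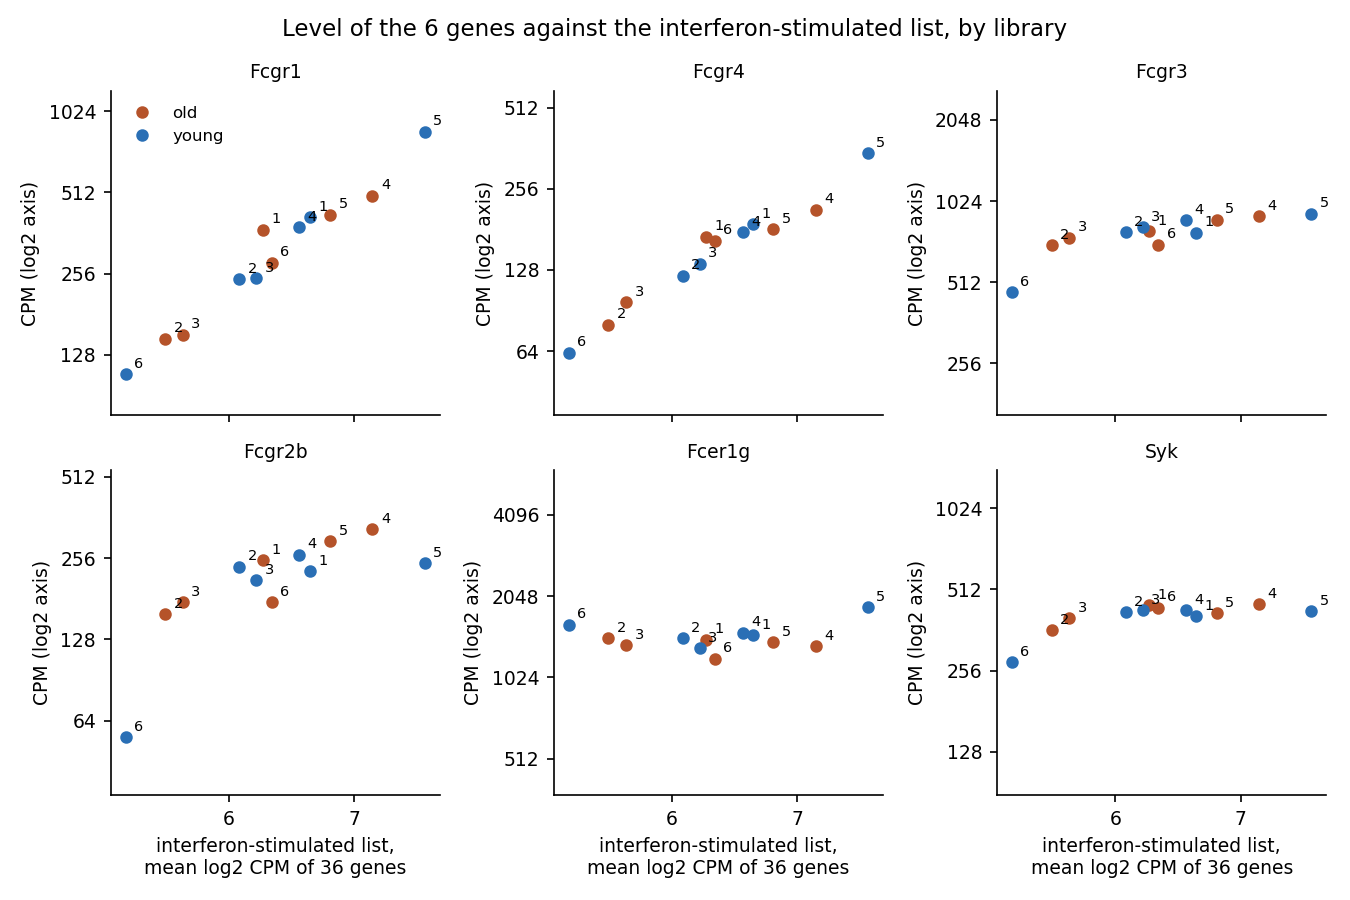
Level of each gene (CPM, log2 axis spanning 16-fold in each panel) against the mean log2 CPM of 36 interferon-stimulated genes, old and young libraries with their replicate numbers. Fcgr1 and Fcgr4 lie along a line in both ages (r 0.98 each over 12 libraries), while Fcer1g and, other than young replicate 6, Syk are nearly flat.

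Between the ages none of the 6 genes differed past the threshold, and none had groups free of overlap. Over all 12620 genes tested with edgeR's quasi-likelihood test 2 genes (0.0158%) were called at an adjusted p of 0.05, both higher in old macrophages and neither a member, and 26 genes (0.206%) had groups that did not overlap. Before adjustment 690 genes (5.47%) and 0 of the 6 members had a p below 0.05, and DESeq2 called 0 of the 6, with an unadjusted p of 0.041 for Fcer1g. Log2 fold changes are old over young. The median log2 fold change of all tested genes was -0.01, with 47.5% positive.

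Among the activating receptors, Fcgr1 averaged 312 ± 144 CPM in old and 375 ± 261 CPM in young libraries (SD, n = 6 each). Its log2 fold change was -0.27 with a standard error of 0.46 and an edgeR adjusted p of 0.89, and the 95% interval ran from 0.414-fold to 1.67-fold. Fcgr4 averaged 151 ± 51.8 CPM in old and 172 ± 96.3 CPM in young libraries, a log2 fold change of -0.19 with a standard error of 0.36 (edgeR adjusted p = 0.91, interval 0.507-fold to 1.53-fold). Both intervals are wide and hold every value from 0.507-fold to 1.53-fold. Fcgr3 averaged 787 ± 85.0 CPM in old and 774 ± 158 CPM in young libraries, a log2 fold change of 0.02 with a standard error of 0.14 (edgeR adjusted p = 0.97, interval 0.831-fold to 1.24-fold). The inhibitory Fcgr2b averaged 231 ± 71.5 CPM in old and 207 ± 76.2 CPM in young libraries, a log2 fold change of 0.16 with a standard error of 0.32 (edgeR adjusted p = 0.91, interval 0.682-fold to 1.82-fold). Without young replicate 6 the values of Fcgr3 and Fcgr2b were -0.08 and -0.04, and both signs turned. The sign of Fcgr3 also turned without old replicate 4 (-0.019) and without old replicate 5 (-0.0083). The sign of Fcgr1 and Fcgr4 hung on young replicate 5, without which they were 0.16 and 0.14.

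For the chain Fcer1g the mean was 1353 ± 83.4 CPM in old and 1531 ± 189 CPM in young libraries (SD, n = 6 each). The log2 fold change was -0.18 with a standard error of 0.084, at an unadjusted edgeR p of 0.052 and an adjusted p of 0.77, and the 95% interval ran from 0.779-fold to 1.001-fold. It was the member with the lowest p, and its sign was negative in all 26 alternatives, at -0.22 to -0.11. These alternatives reuse the same libraries, and the changed cutoff and the fit without robust estimation return the main value of -0.18. Without young replicate 5, its highest library, the value was -0.11, and without old replicate 6, its lowest, -0.14. With 1 library left out, the unadjusted edgeR p of Fcer1g ran from 0.020 (without young replicate 3) to 0.12 (without young replicate 5). The edgeR adjusted p was 0.61 and 0.91 in these fits. With upper quartile scaling the unadjusted edgeR p was 0.043. Syk averaged 420 ± 34.8 CPM in old and 398 ± 60.4 CPM in young libraries, a log2 fold change of 0.08 with a standard error of 0.10 (edgeR adjusted p = 0.86, interval 0.904-fold to 1.23-fold), and -0.01 without young replicate 6.

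With the interferon-stimulated level of each library as a covariate, the age terms of the 2 genes that follow it were smaller and far more precise. Fcgr1 then had a log2 fold change of -0.02 with a standard error of 0.095, and Fcgr4 0.01 with a standard error of 0.082 (edgeR adjusted p = 0.95 and 0.96). At a given interferon-stimulated level no difference between the ages was detectable in these receptors at this spread. The covariate had an r of 0.98 with each of these genes over the same libraries. This fit therefore cannot show an age difference that the receptors share with the list. With the cell cycle level as the covariate instead, both terms were larger, at -0.44 with a standard error of 0.21 for Fcgr1 (unadjusted edgeR p 0.055) and -0.33 with a standard error of 0.14 for Fcgr4 (unadjusted edgeR p 0.039), and neither passed after adjustment (edgeR adjusted p = 0.66 each). These standard errors too were smaller than those without a covariate, 0.46 for Fcgr1 and 0.36 for Fcgr4. The interferon-stimulated list itself had 8 positive and 28 negative genes of 36, with a median log2 fold change of -0.15 and 0 called, and without young replicate 5 it had 31 positive and 5 negative genes and a median of 0.17. Without old replicate 2 it had 18 of each sign and a median of -0.006. The standard error of Fcer1g, 0.081, was hardly altered by the covariate, and its log2 fold change was -0.17. Fcgr2b had 0.25 with a standard error of 0.21.

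**Figure D5:**
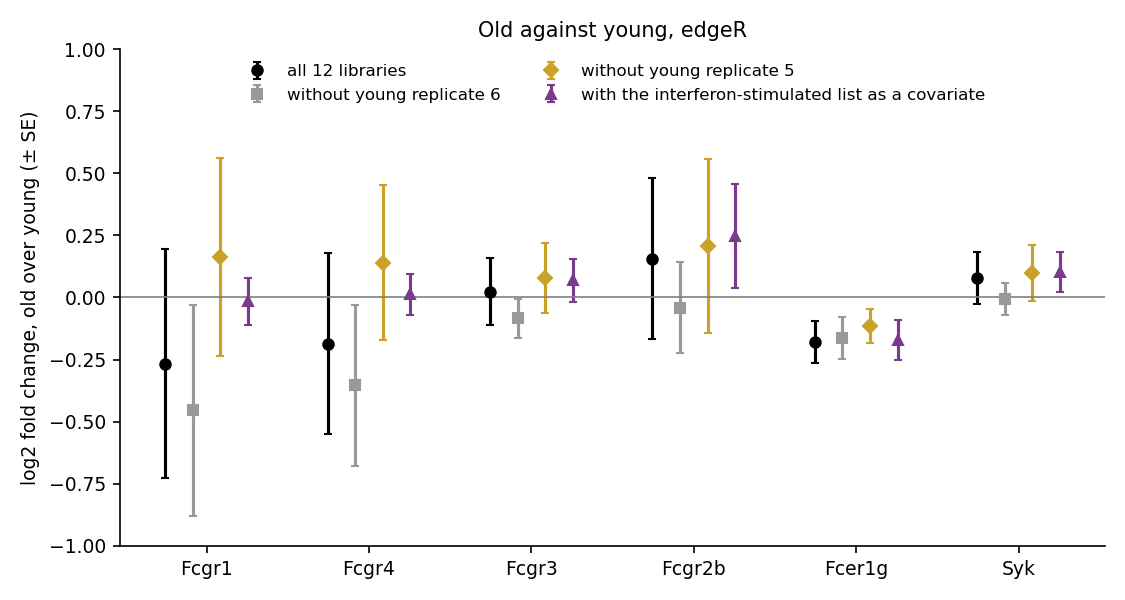
Log2 fold change (old over young) with its standard error for each gene in edgeR, with all 12 libraries, without young replicate 6, without young replicate 5 and with the interferon-stimulated level as a covariate. The values of Fcgr1 and Fcgr4 move most when a single young library is left out, and their standard errors are smallest with the covariate.

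Of the genes around these receptors, 0 were called between the ages in each of 11 lists of pathway genes. Over all 12620 tested genes only 2 (0.0158%) were called, so 0 calls in lists of this size says little about them. The median log2 fold change changed sign when a single library was left out for 5 of these lists: the receptors that use Fcer1g, the Src family kinases, the oxidase, the genes from Syk to the nucleus and the regulators of receptor transcription. The other 6 kept the sign of their median but not its size: it ran from -0.25 (without young replicate 6) to -0.006 (without old replicate 6) for the other Fc receptors and from -0.15 to -0.05 for the other chains with activation motifs. It ran from 0.03 to 0.09 for adaptors and Tec kinases, from 0.009 to 0.06 for PI3 kinase and phospholipase signalling and from 0.01 to 0.05 for actin and the phagocytic cup. Of 13 other Fc receptors 5 were tested, 1 positive and 4 negative (median log2 fold change -0.10); the most abundant, Fcrls, averaged 353 ± 103 CPM in old and 379 ± 116 CPM in young libraries, and Fcrl1 had 28.3 ± 2.66 CPM in old and 33.4 ± 4.21 CPM in young libraries (edgeR adjusted p = 0.77). Of the other chains with activation motifs 3 of 8 were tested, all negative (median -0.11). Tyrobp, the DAP12 chain that serves other macrophage receptors as Fcer1g serves these, averaged 1357 ± 57.9 CPM in old and 1463 ± 163 CPM in young libraries (log2 fold change -0.11, edgeR adjusted p = 0.77). Cd79b, the B cell receptor chain, was at 1.98 ± 0.721 CPM in old and 2.59 ± 0.592 CPM in young libraries. Of 9 other receptors that use the chain Fcer1g, 7 were tested, 4 positive and 3 negative (median 0.01). Clec4d, a C-type lectin receptor, was at 532 ± 32.9 CPM in old and 566 ± 40.2 CPM in young libraries, and Lilra5 was at 0.392 ± 0.201 CPM in old and 0.637 ± 0.330 CPM in young libraries.

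Downstream of the receptors, 4 of 8 tested Src family kinases and regulators were positive (median -0.002), 9 of 14 adaptors and Tec kinases (median 0.06), 11 of 18 genes of PI3 kinase and phospholipase signalling (median 0.04) and 16 of 26 genes of actin and the phagocytic cup (median 0.02). Pag1, a docking protein for the kinase CSK, was at 16.1 ± 2.26 CPM in old and 13.04 ± 1.40 CPM in young libraries, and Ptprc, the phosphatase CD45, at 409 ± 97.9 CPM in old and 346 ± 78.1 CPM in young libraries. The ubiquitin ligase gene Cblb was at 127 ± 22.0 CPM in old and 108 ± 13.3 CPM in young libraries, Pik3ca at 70.1 ± 2.59 CPM in old and 61.9 ± 8.27 CPM in young libraries, and the exchange factor gene Vav1 at 248 ± 6.69 CPM in old and 271 ± 14.99 CPM in young libraries. None of these passed (edgeR adjusted p 0.77 to 0.78). The adaptor gene Grb2 was at 468 ± 29.1 CPM in old and 458 ± 48.6 CPM in young libraries, Prkcd at 569 ± 38.06 CPM in old and 563 ± 86.4 CPM in young libraries, and Nckap1l, a subunit of the actin regulator WAVE, at 835 ± 32.6 CPM in old and 807 ± 37.8 CPM in young libraries.

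Of 5 phagocyte oxidase genes 2 were positive (median -0.02), and of 13 genes that lead from Syk to the nucleus 8 (median 0.03). Cyba, the small oxidase subunit, averaged 924 ± 49.3 CPM in old and 1028 ± 164 CPM in young libraries. Mapk3 was at 340 ± 37.2 CPM in old and 354 ± 20.7 CPM in young libraries, and Nfatc1 at 76.0 ± 3.90 CPM in old and 69.9 ± 4.51 CPM in young libraries. The inhibitory phosphatases and adaptors that act with Fcgr2b or on Syk were 1 positive and 9 negative of 10, with a median of -0.08. Without young replicate 6 they were 3 positive and 7 negative with a median of -0.04, and without old replicate 6 they were 3 positive and 7 negative with a median of -0.12. The most abundant, Ptpn6 (SHP-1), was at 405 ± 40.6 CPM in old and 451 ± 50.5 CPM in young libraries (edgeR adjusted p = 0.77). Of 15 regulators of Fc gamma receptor transcription, 3 of which the interferon-stimulated list also holds, 8 were positive (median 0.02), and Spi1, which encodes PU.1, was at 483 ± 33.4 CPM in old and 537 ± 67.1 CPM in young libraries. The cell cycle genes, highest in old replicates 2 and 3 and young replicate 6, had 0 positive and 30 negative of 30, with a median of -0.30 and 0 called, but without young replicate 6 they had 29 positive and 1 negative and a median of 0.32.

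The genes most like each member over the 12 libraries, among 9415 genes of at least 5 mean CPM, were in part the same for Fcgr1 and Fcgr4. For Fcgr1 these were Aif1, Ifi206 and Cd47 (Pearson r of log2 CPM 0.99 each), and for Fcgr4 Ifi206 and Aif1 (0.99) and Ifit2 (0.98), so that 2 of the 3 were shared. For Fcgr3 they were Cyp27a1 and Fam43a (0.99) and Csf1r (0.98), the receptor for the M-CSF in the medium, and for Fcgr2b P2rx7, Usp35 and Kmo (0.98 each). For Syk they were Ptprj, Elac1 and Abca1 (0.98 each), and for Fcer1g Marc2 (0.96), Ssr4 and Pgls (0.95 each). Of the genes named for Fcgr1 and Fcgr4, Ifit2 is on the interferon-stimulated list, while Aif1, Ifi206 and Cd47 are not. All these r are the highest of many values and are given as a description, with no p.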

How the data were processed

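TRIzol RNA went into TruSeq RNA v2 libraries, a kit that does not mark strand, per the labels' protocols. The authors deposited whole-number counts per gene for 12 libraries, made with featureCounts 1.6.0 and Ensembl release 100 (GRCm38) with neither strand nor multiply aligned reads set, per the file headers. The submitters' processing notes add FastQC, STAR and mm10. No source used here says whether the mates of a pair each count, so counts are of alignment records.

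Counts of all 12620 genes kept by filterByExpr were fitted with edgeR 4.0.16 (R 4.3.3; TMM, robust quasi-likelihood F test, group only, two-sided, Benjamini-Hochberg at 0.05). Alternatives used DESeq2 1.42.0, limma 3.58.1, other scalings and filters, and each library left out. Intervals are 95% from the fitted standard error. Levels per kilobase use the deposited exon length, and log2 CPM a prior count of 2. Permutation tests used NumPy 2.4.6, with ranks from SciPy 1.17.1. Genes and lists were chosen with earlier results of these data known. Named genes are the members, from each list the most abundant member and that of lowest p, and the 3 most alike genes.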

Additional observations from a re-analysis of the deposited data

Results flagged for a closer look

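Young replicate 6 lay far below the other young libraries for 3 of the 6 genes. Fcgr3 had 470 CPM there, against 783 CPM in the next young library. Fcgr2b had 55.6 CPM, against 212 CPM in the next. Syk had 276 CPM, against 407 CPM in the next. The gap to the next library took up 0.70, 0.75 and 0.85 of the range of the young libraries, above Dixon's limit of 0.625 for 6 libraries. Of the groups tested this way (14, one for each gene or the ratio in each age), chance flags about 1 in 20. The 3 flags are not independent: they fall on 1 library, in genes that varied together within the young libraries (r 0.97 to 0.99, this library included). The same library had the highest cell cycle level (mean log2 CPM 6.75) and the highest Cd34 (59.6 CPM), and their part in these 3 levels was not tested. Fcer1g, at 1607 CPM, was not low in it.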

How the results depend on the processing

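No member was called in any of 26 alternatives each, and Fcer1g kept its negative sign in all, though a changed cutoff cannot alter a sign. The labels do not tie same-numbered libraries to a shared source. Their deviations correlated at -0.17 to 0.39, above 0.1 in 4 of 6 pairs, short of the every-pair rule used to accept pairing, and 2 of 6 old libraries correlated best with their own number. The replicate block gave 4 called genes, none a member, and log2 fold changes of -0.16 for Fcgr1 (standard error 0.30, against 0.46 without the block), -0.10 for Fcgr4 and 0.24 for Fcgr2b. Against 2 genes called over the whole table there were 4 without a low-count filter, 11 by DESeq2, 4 by voom with quality weights, 5 with the cell cycle covariate, 4 with the interferon-stimulated covariate, and 1 to 5 when 1 library was left out. Signs that turned: with quality weights Fcgr1 0.047 and Fcgr4 0.016; without young replicate 6 and old replicates 2 and 3 Fcgr3 -0.029; with the cell cycle covariate Fcgr3 -0.018; with the interferon-stimulated covariate Fcgr4 0.012. With 1 library left out Fcgr1 ran from -0.45 to 0.16, Fcgr3 from -0.084 to 0.079, Fcgr4 from -0.35 to 0.14, Fcgr2b from -0.041 to 0.24 and Syk from -0.0065 to 0.12. The difference of the ratio stayed negative, at -0.36 to -0.10 with 1 library left out. The log2 ratio over all libraries, 4.29 with counted exons, was 2.61 from raw counts, 2.37 as a mean of log2 levels, 2.72 without Fcgr3, and 3.83 or 2.66 with the longest or shortest principal transcripts. As a share of the summed level of the 6 genes, Fcgr2b was 1.54% with counted exons and 4.31% with the shortest transcripts, and Syk 1.81% against 2.47% (longest) and 2.52% (shortest). Without the same 3 libraries the SD was 0.13 for Fcgr3, 0.46 for Fcgr4, 0.27 for Fcgr2b and 0.041 for Syk. Relations no longer past the threshold then were Fcgr1 with Fcgr3 (r 0.71) and Fcgr2b (0.47), Fcgr3 with Fcgr4 (0.60), Fcgr2b (0.79) and Syk (0.032), Fcgr4 with Fcgr2b (0.30) and Syk (0.010), Fcgr2b with Syk (0.19), and the interferon-stimulated list with Fcgr3 (0.75) and Fcgr2b (0.49). Signs turned for Fcgr1 with Syk (-0.021), the list with Syk (-0.013), Fcer1g with Fcgr3 (0.61) and Fcer1g with Fcgr2b (0.26). The cause was not tested. Transcript lengths and the relations without 3 libraries were chosen after seeing the data. Depth does not limit these genes, since the lowest count was 1377; the spread between libraries does.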
